A study of Mus musculus with 8 samples.

Results

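Adrenergic receptors and the genes that couple them to the cell interior were examined in left ventricles of mice infused with angiotensin II (ANG II, a peptide hormone that constricts vessels and raises blood pressure). The 9 genes were chosen by name from the 55679 genes of the FPKM table (FPKM values divide fragments by transcript length and by library size). They were the β receptors Adrb1 and Adrb3, the α1 receptors Adra1a, Adra1b and Adra1d, the receptor kinase Grk5, the Gs α subunit gene Gnas, and the adenylyl cyclases Adcy5 and Adcy6. Of these, 8 passed the filter of a mean of 0.1 FPKM and were tested, and Adrb3 did not. All animals were male C57BL/6J mice of wild-type (WT) genotype, and their age was not given in the sources used here. The 4 control mice received saline and the 4 ANG II mice received ANG II at 1500 ng/kg/min, in both cases for 7 days from a mini-pump under the skin. Hearts were flushed with saline before the left ventricle was removed. The labels number the libraries within a group without naming an animal, and the study calls its replicates biological but gives a larger number per group than the 4 used here. P-values therefore measure the spread between these libraries.

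Noradrenaline from sympathetic nerves and adrenaline from the blood act on the heart through these receptors. β1 receptors activate Gs, which switches on adenylyl cyclases, and the cyclic AMP they make activates protein kinase A (PKA), which speeds and strengthens the beat. α1 receptors activate Gq and phospholipase C instead, and receptor kinases phosphorylate receptors that have been activated, so that arrestins bind and uncouple them.

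The libraries held 14455654 to 16564828 fragments, as recovered from the steps of the FPKM values. Several features of the tissue moved with the treatment. Mitochondrially encoded genes took 26.3% to 26.9% of fragments in control and 19.2% to 21.8% in ANG II, and 12397 to 12719 and 13123 to 13298 genes reached 1 FPKM. The summed level of 10 cardiomyocyte markers was 48587 to 49432 FPKM in control and 36735 to 39620 FPKM in ANG II, and 2 of the 10 were called lower. The sum of 9 fibroblast markers was 1197 to 1667 FPKM in control and 4051 to 4548 in ANG II (8 of 9 called higher), and that of 9 macrophage markers was 248.3 to 321.7 and 584.0 to 813 (8 of 9 called higher). Endothelial markers summed to 553 to 631.2 FPKM in control and 659.2 to 792.1 in ANG II, while the sums of smooth muscle, adipocyte and skeletal muscle markers overlapped between groups. Single genes were called among them all the same. Of 9 smooth muscle and pericyte markers, 3 were called higher and 1 lower, and of 5 tested skeletal muscle markers 3 were called higher. None of 6 tested adipocyte markers was called. Atrial markers, which include Nppa, summed to 10.3 to 60.7 FPKM in control and 197.2 to 341.5 in ANG II, and Schwann cell markers to 19.6 to 25.9 and 26.0 to 30.5. The extraction label names CRC cells in place of ventricle. Intestinal epithelium markers summed to at most 1.11 FPKM in any library and Cdx2 was at 0 in all, while the cardiomyocyte markers were those of heart. In bulk tissue, fewer cells of a type and less RNA per cell cannot be told apart. The part that these shifts have in the results that follow was not tested.

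Of the 8 genes tested, 1 rose and none fell. Grk5 was called higher, with an adjusted p under 0.05 and an absolute log2 fold change above 0.5 in limma over 19364 genes, among which 15.4% were called in either direction, 14% higher and 1.41% lower. Adrb1 also had an adjusted p under 0.05, which 33.3% of all tested genes had (28.4% higher and 4.91% lower), but its fold change was under the threshold. At an unadjusted p under 0.05 the genes with a negative fold change were Adrb1, Adra1a and Adra1b. The ranges of the groups did not overlap for 2 of the 8 genes, Grk5 and Adrb1, against 33.7% of all tested genes (28.7% higher and 5.06% lower in ANG II). Fold changes were negative for 6 of the 8, among them the 4 tested receptors, against 28.5% of all tested genes. The median log2 fold change on the log2(FPKM + 1) scale was -0.15 over the 8 genes and 0.15 over all tested genes, so that a gene at 0 lay below the middle of all genes. Under median-of-ratios scaling, which sets the middle of all genes near 0.00, the split of all calls moved from 2708 higher and 273 lower to 1670 higher and 804 lower. After quantile normalization it was 1413 higher and 986 lower.

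**Figure D1:**
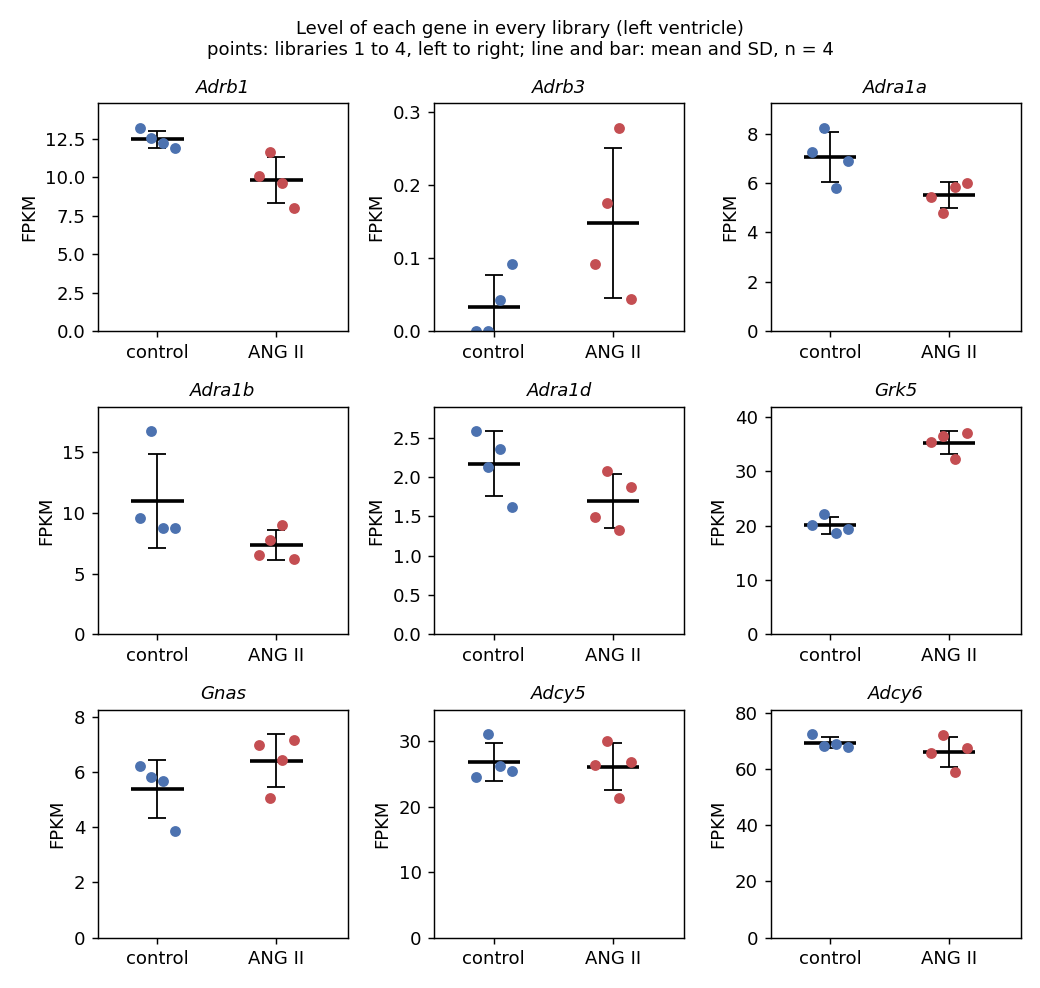
Level in FPKM (vertical axis, from 0) of each of the 9 genes in the 4 control and 4 ANG II libraries, with a point per library, the mean as a line and the SD as a bar. The 4 ANG II libraries sit between 32.3 and 37.0 FPKM for Grk5, above every control, and between 7.99 and 11.7 FPKM for Adrb1, below every control.

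Grk5 and Adrb1, the 2 genes whose groups did not overlap, both lie on chromosome 19. The 250 bases before their start sites, in which transcription factors commonly bind, are shown from RefSeq (GRCm38.p6, plus strand) for chr19:60889499-60889748 and chr19:56721867-56722116. Capitals mark 3 motifs searched on both strands, the cyclic AMP response element half-site TGACG, the GC box GGGCGG and the CCAAT box.
Grk5: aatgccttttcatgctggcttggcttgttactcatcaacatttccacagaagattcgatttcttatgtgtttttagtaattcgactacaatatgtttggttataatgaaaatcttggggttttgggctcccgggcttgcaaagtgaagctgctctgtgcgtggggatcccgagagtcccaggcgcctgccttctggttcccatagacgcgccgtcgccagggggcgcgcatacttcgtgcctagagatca
Adrb1: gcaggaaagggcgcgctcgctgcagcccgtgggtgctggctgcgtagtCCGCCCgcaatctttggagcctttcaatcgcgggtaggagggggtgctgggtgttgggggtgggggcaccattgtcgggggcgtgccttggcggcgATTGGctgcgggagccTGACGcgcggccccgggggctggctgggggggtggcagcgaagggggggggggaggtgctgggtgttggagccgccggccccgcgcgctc
The Adrb1 window held 1 match of each motif and was 74% G or C, and the Grk5 window held none and was 49.6% G or C. Of 32851 such windows in mouse, 17.8% held the half-site, 32.7% the GC box and 33.8% the CCAAT box. No 2 of the matches overlapped. The table had windows for 5 of the 9 genes, and a match describes letters only.

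Among the β receptors, Adrb1 (ENSMUSG00000035283, chr19:56722199-56733113 in GENCODE M21, plus strand) encodes the β1 receptor, the principal β receptor of the cardiomyocyte. Its level was 13.2, 12.6, 12.2 and 11.9 FPKM in control libraries 1 to 4 and 10.1, 11.7, 9.64 and 7.99 FPKM in ANG II libraries 1 to 4. All 4 ANG II libraries were below the lowest control, with library 2 closest to the controls and library 4 farthest from them. The mean was 12.5 ± 0.555 FPKM in control and 9.84 ± 1.50 after infusion (SD, n = 4 each), a difference of -21.2%, on 220 to 349 fragments per library. The log2 fold change was -0.32 (SE 0.10, 95% interval -0.55 to -0.10, limma adjusted p = 0.0314), and the exact two-sided permutation test gave p = 0.0286, the smallest that 4 against 4 allows. The adjusted p was under 0.05 in 9 of 17 alternative analyses, and Adrb1 was called lower in 2 of them, with -0.53 under median-of-ratios scaling and -0.58 after quantile normalization (limma adjusted p = 0.00382 and 0.00353). Leaving out each library but ANG II 2 took it to between 0.0532 and 0.0789, and the fold change stayed negative in all 17. The summed cardiomyocyte markers differed by -23.1% between the same groups.

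Adrb3 (ENSMUSG00000031489, chr8:27225776-27250616, minus strand) encodes the β3 receptor, best known from adipose tissue. It was at 0, 0, 0.042 and 0.092 FPKM in control and at 0.093, 0.176, 0.279 and 0.044 FPKM in ANG II. These values rest on 0 to 2 fragments per control library and 1 to 6 per ANG II library, 3 and 13 fragments in all, and a value of 0 allows up to 3 fragments. The groups overlapped and no test was made at this depth. In addition, 24.9% of its exon bases lie under genes of the opposite strand, among which Gm45470 has the most overlap. The adipocyte marker sum was 10.1 to 15.7 FPKM in control and 11.3 to 26.7 in ANG II, with overlap and no marker called.

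The 3 α1 receptors had lower means in ANG II than in control, and none was called on the values as deposited. Adra1a (ENSMUSG00000045875, chr14:66635251-66771168, plus strand), which encodes the α1A receptor, was at 7.26, 8.23, 5.81 and 6.88 FPKM in control and at 5.42, 4.78, 5.83 and 6.01 FPKM in ANG II. Control 3 lay within the range of the ANG II libraries, and the other 3 controls lay above it. The means were 7.05 ± 1.00 and 5.51 ± 0.543 FPKM (SD, n = 4 each), and their log2 difference was -0.30 (SE 0.11, 95% interval -0.55 to -0.06, adjusted p = 0.0603 in limma). It was -0.50 under median-of-ratios scaling. After quantile normalization Adra1a was called lower at -0.60 (limma adjusted p = 0.00171).

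Adra1b (ENSMUSG00000050541, chr11:43774606-43901210, minus strand), the α1B receptor gene, was at 9.57, 16.7, 8.78 and 8.72 FPKM in control and at 6.53, 7.76, 8.96 and 6.18 FPKM in ANG II. Control 2 stood far above the other controls, and ANG II 3 lay among them. The means were 11.0 ± 3.87 and 7.36 ± 1.27 FPKM (SD, n = 4 each). The log2 fold change was -0.48 (SE 0.19, 95% interval -0.91 to -0.05, limma adjusted p = 0.0849), and without control 2 it was -0.27 (adjusted p = 0.126). Adra1b was called lower in 4 of the 17 alternatives, among them limma-voom on the recovered fragments (log2 fold change -0.53, adjusted p = 0.0491).

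Adra1d (ENSMUSG00000027335, chr2:131545850-131562283, minus strand), the α1D receptor gene, was the lowest of the tested receptors, with 38 to 74 fragments per library. It was at 2.59, 2.13, 2.35 and 1.62 FPKM in control and at 1.49, 2.08, 1.32 and 1.88 FPKM in ANG II. The groups overlapped, with control 4 below 2 of the ANG II libraries. Its log2 fold change was -0.23 (SE 0.14, 95% interval -0.54 to 0.07, limma adjusted p = 0.223), an interval that includes 0, and under quantile normalization it was called lower at -0.53 (limma adjusted p = 0.0139). Exact two-sided permutation tests gave p = 0.0857, 0.0857 and 0.143 for Adra1a, Adra1b and Adra1d.

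The 5 receptor genes together came to 32.6, 39.6, 29.2 and 29.2 FPKM in control and to 23.6, 26.4, 26.0 and 22.1 FPKM in ANG II. All 4 ANG II sums were below the lowest control, with means of 24.6 ± 2.05 and 32.7 ± 4.91 FPKM (SD, n = 4 each). The makeup of the sum overlapped between groups for every receptor. Adrb1 took 38.7% ± 4.71 of it in control and 40.0% ± 3.96 in ANG II, Adra1b 32.9% ± 6.23 and 29.9% ± 3.14, Adra1a 21.6% ± 1.62 and 22.7% ± 3.72, and Adra1d 6.72% ± 1.47 and 6.95% ± 1.54 (SD over 4 libraries). The α2 receptors, which act mainly on nerve endings, had low levels. Adra2b was at 0.189 to 0.598 FPKM (12 to 38 fragments) and Adra2c at 0.105 to 0.266 FPKM (6 to 14 fragments) over the 8 libraries with neither called, and Adra2a was under the filter at 0 to 5 fragments.

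**Figure D2:**
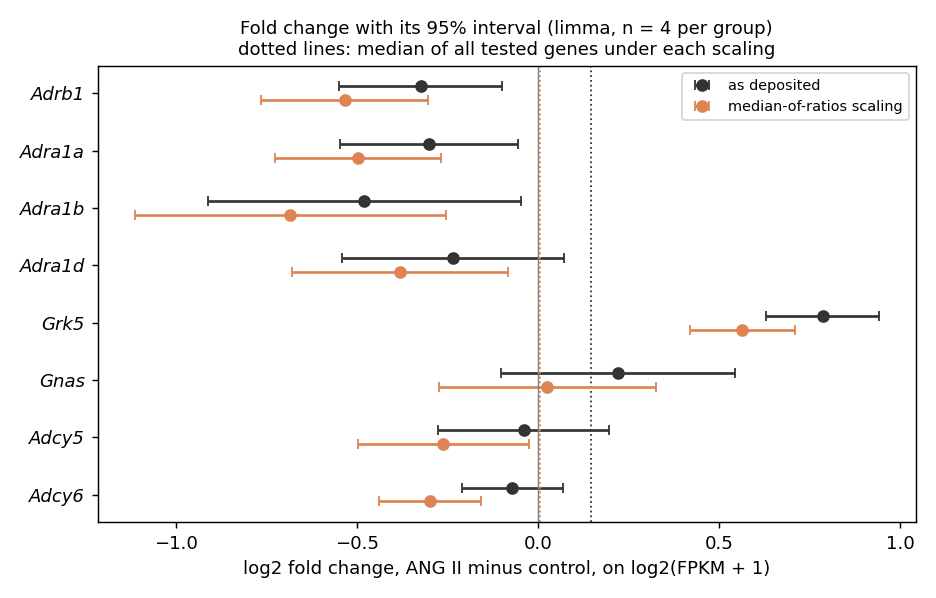
Log2 fold change (horizontal axis, ANG II minus control on log2(FPKM + 1)) of the 8 tested genes with its 95% interval from limma, for the values as deposited (black) and after median-of-ratios scaling (orange), with dotted lines at the median of all tested genes. Grk5 alone lies right of both medians with its whole interval, and the 4 receptors have points left of 0 under both scalings, between -0.48 and -0.23 as deposited.

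Grk5 (ENSMUSG00000003228, chr19:60889749-61095968, plus strand) encodes G protein-coupled receptor kinase 5, which phosphorylates activated β receptors and has also been described as a kinase of class II histone deacetylases in the cardiomyocyte nucleus. Its level was 20.1, 22.2, 18.6 and 19.4 FPKM in control and 35.4, 36.5, 32.3 and 37.0 FPKM in ANG II. The groups were far apart, and the lowest ANG II library was well above the highest control. The mean rose from 20.1 ± 1.55 to 35.3 ± 2.13 FPKM (SD, n = 4 each), a ratio of 1.76. The log2 fold change was 0.79 (SE 0.07, 95% interval 0.63 to 0.94, limma adjusted p = 4.35e-05), higher in 4 of 4 libraries, and the exact two-sided permutation test gave p = 0.0286, the smallest possible. In all 17 alternatives Grk5 was called higher at the threshold of 0.5, with log2 fold changes from 0.56 to 0.83.

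The genes whose levels followed Grk5 most closely were Ptn, a secreted growth factor, Eln, the elastic fibre protein elastin, and Thbs2, a matricellular protein. Pearson's r of log2(FPKM + 1) over the 8 libraries was 0.999, 0.998 and 0.997. The libraries fall into the 2 groups, so that r mainly follows the gap between them, and 1054 of 12947 genes had an r above 0.95. Ptn went from a mean of 1.99 to 25.6 FPKM, Eln from 27.6 to 111.1 and Thbs2 from 6.15 to 23.3, each a larger ratio than that of Grk5. The fibroblast marker sum was 186% higher in ANG II in the same libraries.

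Grk2, the other main receptor kinase of the heart, was at 49.3, 49.8, 46.1 and 43.2 FPKM in control and at 58.7, 50.9, 53.4 and 58.5 FPKM in ANG II. The groups did not overlap, and the log2 difference of 0.23 (SE 0.07, adjusted p = 0.0238 in limma) was under the threshold. Within each library the Grk5 to Grk2 ratio was 0.408, 0.446, 0.403 and 0.449 in control and 0.603, 0.717, 0.604 and 0.632 in ANG II. Every ANG II library had the higher ratio, and a ratio of this kind does not move with the scaling of the library. The log2 ratio was higher by 0.58 (SE 0.07). An exact two-sided permutation test gave p = 0.0286, the smallest possible, and 0.171 after adjustment over the 6 ratios compared. With 1 ratio alone at the smallest p, the adjusted value cannot fall under 0.05.

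**Figure D3:**
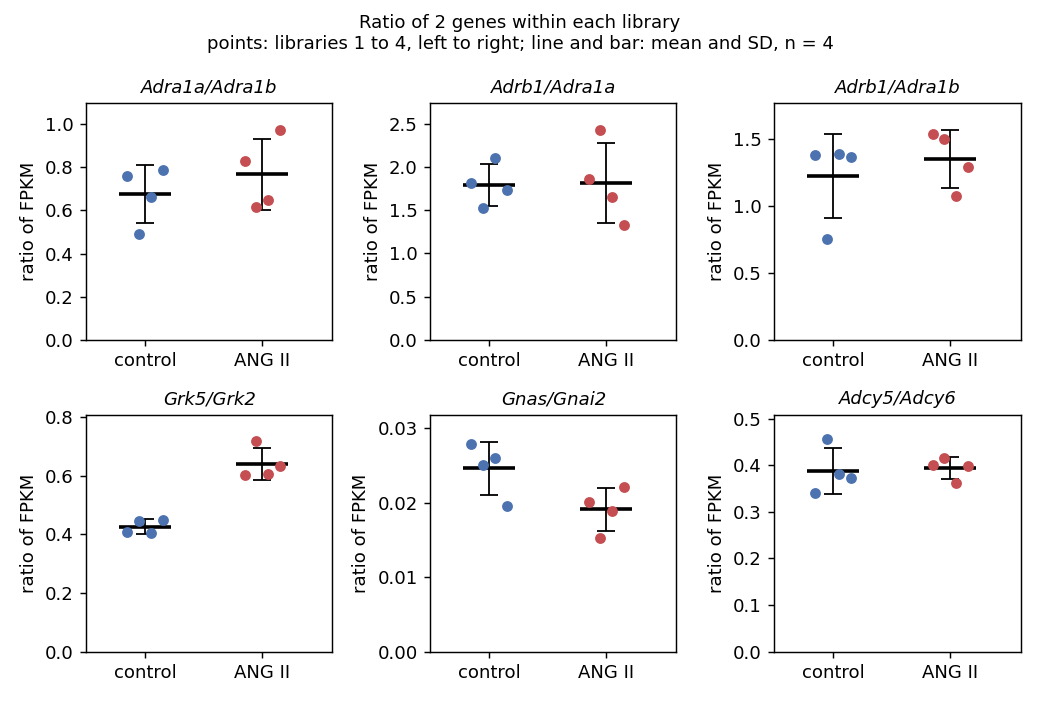
Ratio of the FPKM of 2 genes within each library (vertical axis, from 0) for 6 pairs, with a point per library, the mean as a line and the SD as a bar. The groups are apart only for Grk5/Grk2, with means of 0.427 in control and 0.639 in ANG II, and overlap for the other 5 pairs.

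Gnas (ENSMUSG00000027523, chr2:174284320-174346744, plus strand) encodes the α subunit of Gs, which links β receptors to adenylyl cyclase, in an imprinted locus with several promoters. It was at 6.21, 5.79, 5.67 and 3.86 FPKM in control and at 6.97, 5.05, 6.44 and 7.16 FPKM in ANG II. The groups overlapped, with control 4 the lowest of all libraries and ANG II 2 below 3 of the controls. The means were 5.38 ± 1.04 and 6.41 ± 0.953 FPKM (SD, n = 4 each), and their log2 difference was 0.22 (SE 0.14, 95% interval -0.10 to 0.54, adjusted p = 0.276 in limma). The level itself is uncertain. Genes of the opposite strand lie over 22% of the Gnas exon bases, and Gm20721 has the most overlap among them. Gm20721 covers 80.4% to 85.4% of the 3 protein-coding transcripts it covers most, Gnas-208, Gnas-206 and Gnas-207. The use of strand in counting was not given in the sources used here. Gm20721 itself was listed at 0 to 0.14 FPKM, and 18.6% of the 50-base words of Gnas transcripts also occurred in other genes.

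Gnai2, which encodes a Gi α subunit that inhibits adenylyl cyclase, was among the called genes. It was at 222.7, 231.8, 218.0 and 197.7 FPKM in control and at 346.4, 331.4, 340.9 and 323.4 FPKM in ANG II. All ANG II libraries were above all controls, and the log2 fold change was 0.62 (SE 0.06, limma adjusted p = 4.92e-05). It was not called under median-of-ratios scaling (0.40) or quantile normalization (0.48). The Gnas to Gnai2 ratio was 0.0195 to 0.0279 in control and 0.0152 to 0.0221 in ANG II, with overlap. Its log2 difference of -0.37 (SE 0.16) had p = 0.0857 in the exact two-sided permutation test and 0.257 after adjustment over the 6 ratios, and it carries the uncertainty of Gnas.

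Adcy5 and Adcy6 encode the main adenylyl cyclases of the cardiomyocyte, and neither was called. Adcy6 (ENSMUSG00000022994, chr15:98589973-98610076, minus strand) had the highest listed FPKM of the 9 genes, at 72.4, 68.3, 68.9 and 68.0 FPKM in control and at 65.7, 72.2, 59.1 and 67.5 FPKM in ANG II. ANG II 2 lay with the highest control and the other 3 ANG II libraries lay below all controls. The log2 fold change was -0.07 (SE 0.06, 95% interval -0.21 to 0.07, limma adjusted p = 0.415). It was -0.30 with an adjusted p of 0.00621 under median-of-ratios scaling, still under the fold change threshold.

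Adcy5 (ENSMUSG00000022840, chr16:35154877-35305738, plus strand) was at 24.6, 31.1, 26.3 and 25.4 FPKM in control and at 26.4, 30.0, 21.4 and 26.9 FPKM in ANG II. The groups covered much the same range, and the log2 fold change was -0.04 (SE 0.11, 95% interval -0.28 to 0.20, limma adjusted p = 0.805). The Adcy5 to Adcy6 ratio was 0.388 ± 0.0487 in control and 0.394 ± 0.0229 after infusion (SD, n = 4 each), and the permutation test, exact and two-sided, gave p = 0.743. The 3 ratios between receptors also overlapped, with exact two-sided permutation p-values of 0.429 for Adra1a/Adra1b, 1 for Adrb1/Adra1a and 0.543 for Adrb1/Adra1b. Their log2 differences were 0.18 (SE 0.22), -0.01 (SE 0.21) and 0.18 (SE 0.25).

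Ordered by mean FPKM, a scale that allows for transcript length, the control level ran Adcy6, Adcy5, Grk5, Adrb1, Adra1b, Adra1a, Gnas, Adra1d and Adrb3. Neighbours overlapped in range for Adrb1 with Adra1b and for Adra1a with Gnas. In ANG II the order was Adcy6, Grk5, Adcy5, Adrb1, Adra1b, Gnas, Adra1a, Adra1d and Adrb3, and each of the genes from Adrb1 to Adra1a overlapped its neighbour among them. Grk5 and Adcy5 exchanged places without overlap in either group, from 20.1 below 26.8 FPKM to 35.3 above 26.2 FPKM. The place of Gnas in both orders carries the uncertainty of its level.

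The other genes of the pathway were read in 11 lists of 112 genes, of which 105 were tested, 14 called higher and 4 lower. The split turned to 10 higher and 10 lower under median-of-ratios scaling and to 8 and 11 under quantile normalization. The shares called were 13.3% higher and 3.81% lower, 17.1% in either direction, against 14%, 1.41% and 15.4% of all tested genes. The median log2 fold change was 0.18 against 0.15. Of the 6 receptor kinases and arrestins, 2 rose, and both were β-arrestins, the adaptors that bind phosphorylated receptors. Arrb2 was at 14.2, 9.34, 10.4 and 8.35 FPKM in control and 25.6, 20.2, 27.3 and 29.1 in ANG II, a log2 difference of 1.21 (SE 0.16, adjusted p = 0.000334 in limma). Arrb1 went from a mean of 16.6 ± 2.39 to 26.9 ± 2.86 FPKM (SD, n = 4 each), a log2 difference of 0.67. Neither overlapped between groups. Either median-of-ratios scaling or quantile normalization left Arrb2 called and Arrb1 not.

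Of 12 other G protein α subunits, 4 rose and none fell. Besides Gnai2, they were Gnao1 (Go, 13.2 to 25.6 FPKM in the mean, log2 fold change 0.91), Gna15 (of the Gq class, 0.561 to 1.61 FPKM, 0.75) and Gnai3 (Gi, 10.9 to 17.2 FPKM, 0.62), the last named after its value was seen. Of the 4, Gnao1 and Gna15 were called under median-of-ratios scaling and Gnao1 alone under quantile normalization. Gnaq, the Gq subunit that α1 receptors use, had an adjusted p of 0.000778 in limma, but its log2 fold change of 0.39 kept it from being called. Of 13 tested β and γ subunits, Gng8 (log2 fold change 1.62) and Gng2 (1.14) rose. Of 7 other adenylyl cyclases, 1 rose, Adcy7, a cyclase known from blood cells. It was at 7.12, 6.97, 6.02 and 5.29 FPKM in control and 18.4, 18.9, 15.8 and 18.4 FPKM in ANG II, a log2 difference of 1.37 (SE 0.10, adjusted p = 1.41e-05 in limma). Adcy1, a cyclase known from the brain, had a mean of 0.694 FPKM in control and 0.299 in ANG II without overlap, and its log2 difference of -0.38 (adjusted p = 0.00664 in limma) was under the threshold. It was called lower after quantile normalization (-0.53) and by limma-voom (-1.21). The macrophage marker sum was 147% higher in the same ANG II libraries.

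**Figure D4:**
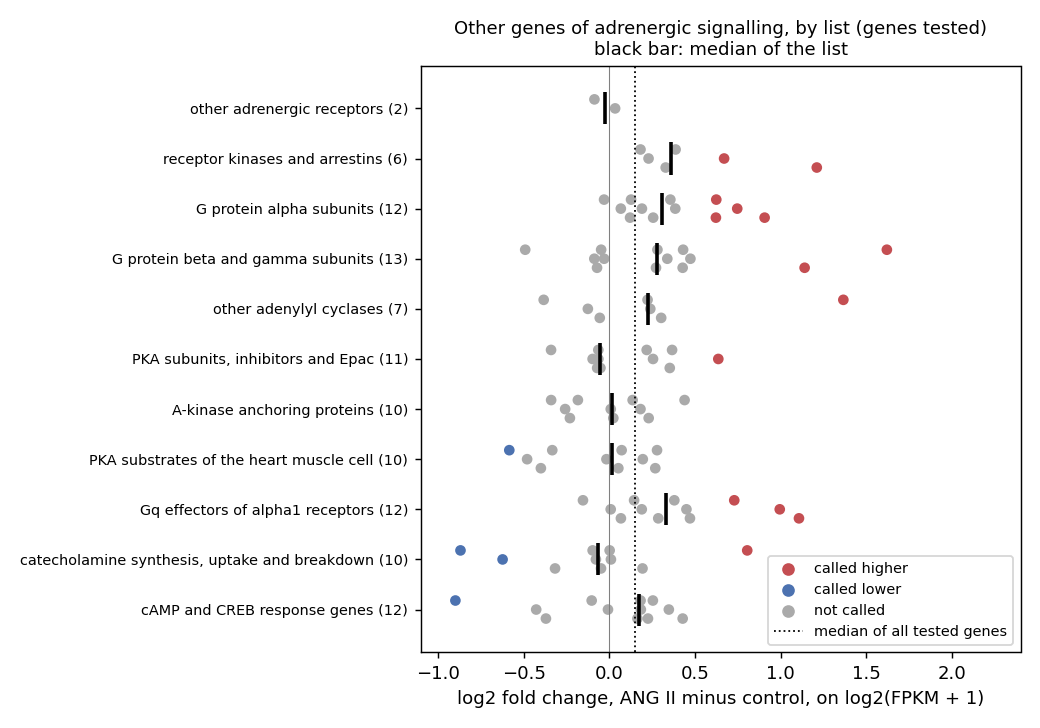
Log2 fold change (horizontal axis, ANG II minus control on log2(FPKM + 1)) of each tested gene in 11 lists of adrenergic signalling genes, coloured by call, with the median of each list as a black bar and the median of all tested genes as a dotted line. The called genes number 14 to the right and 4 to the left, and the medians of the lists run from -0.06 to 0.36.

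Downstream of cyclic AMP, 1 of 11 genes of PKA subunits, their inhibitors and Epac rose. This was Prkar1b, a regulatory subunit, from 1.58 ± 0.329 to 3.02 ± 0.586 FPKM (SD, n = 4 each; log2 fold change 0.64). Under median-of-ratios scaling and quantile normalization Prkar1b was not called (0.48 and 0.34), and the 1 call of the list was Pkia, a PKA inhibitor, lower at -0.57 and -0.52. None of the 10 A-kinase anchoring proteins, which hold PKA near its substrates, was called by limma or by limma-voom. Of the 10, 6 had an unadjusted p under 0.05 in limma. An adjusted p under 0.05 was met by 4, 2 of them higher and 2 lower, against 33.3% of all tested genes (28.4% higher and 4.91% lower). Akap1, at -0.34, was called lower under median-of-ratios scaling (-0.57) and quantile normalization (-0.51). Of 10 PKA substrates of the heart muscle cell, 1 fell, Tnni3, the cardiac troponin I of the thin filament. Tnni3 was at 5830, 5611, 5398 and 5248 FPKM in control and 3489, 3416, 4306 and 3577 FPKM in ANG II, a log2 difference of -0.58 (SE 0.09, adjusted p = 0.00101 in limma). Under quantile normalization it was not called (-0.37). It is also 1 of the cardiomyocyte markers counted above. Of 12 cyclic AMP and CREB response genes, 1 fell, Ppargc1a, a coactivator of mitochondrial genes, from 72.1 ± 18.5 to 37.4 ± 2.79 FPKM (SD, n = 4 each; log2 fold change -0.90, SE 0.16, limma adjusted p = 0.0018).

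Of 12 effectors of the Gq branch, 3 rose and none fell. They were the protein kinase C genes Prkcb (1.53 to 4.43 FPKM in the mean, log2 fold change 1.11) and Prkcd (12.1 to 25.3 FPKM, 0.99), and the phospholipase C gene Plcb1 (3.06 to 5.80 FPKM, 0.73). None of the 3 overlapped between groups, and Plcb1 was not called under quantile normalization (0.41).

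Among 10 tested genes of catecholamine synthesis, uptake and breakdown, 2 fell. Dbh, which makes noradrenaline from dopamine, was at 2.36, 3.03, 2.10 and 2.84 FPKM in control and 1.01, 0.819, 1.25 and 0.772 FPKM in ANG II (log2 fold change -0.87, SE 0.13, limma adjusted p = 0.000679). Slc22a3, a transporter that takes up catecholamines outside nerves, went from 2.27 ± 0.442 to 1.13 ± 0.368 FPKM (SD, n = 4 each; log2 fold change -0.62). Neither overlapped between groups. Of the 5 tested sympathetic neuron markers, Dbh among them, 2 were called higher, Uchl1 (4.48 to 24.7 FPKM in the mean) and Stmn2 (3.71 to 5.99 FPKM), and Dbh alone was called lower. Th and Slc6a2 were under the filter, and the sum over that list was 18.2 to 22.2 FPKM in control and 37.3 to 49.0 in ANG II.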

How the data were processed

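RNA-seq of oligo(dT)-selected RNA was read from 8 left ventricle libraries. The authors deposited 1 table of FPKM values with a column per library and no pooling, made from paired reads of 150 bases. Bowtie2, HISAT and RSEM are named in the submitters' processing notes without role or version. The genome build, annotation release and use of strand were not given in the sources used here. Groups came from the sample titles.

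The deposited FPKM values were compared with limma 3.58.1 in R 4.3.3 on log2(FPKM + 1), using lmFit and trended eBayes, for the 19364 genes whose mean reached 0.1 FPKM. The two-sided p-values received Benjamini-Hochberg adjustment across all of these genes. A gene was called at an adjusted p under 0.05 and an absolute log2 fold change above 0.5, thresholds named by the study, with base 2 chosen here. Fold changes on this scale understate those of low genes. For single values and ratios, all 70 allocations of the libraries were enumerated (exact permutation test, two-sided). Fragments were recovered as FPKM times mean transcript length (GENCODE M21, GRCm38), and 97.8% of values above 0 were whole within 0.05 fragment. For Gnas the length was searched. The floor of 3 fragments covers counting error only, and the 95% intervals come from the spread between libraries. On simulated data for this comparison, with 200 genes changed, 189 of those changed 3-fold (among 18687 genes) and 57 of those changed 2-fold (among 18700) were recovered.

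The 9 genes, the pathway and marker lists and the tests were chosen with earlier results of these data known. Named were all 9 genes, up to 3 called genes of each list with the largest absolute fold change and 1 FPKM or more in a group mean, the partners in the ratios, and the 3 genes most like the called gene. Gnai3, Gnaq, Pkia, Akap1, Pln, Cacnb2, Adcy1, Adcy2, Adcy8, Uchl1, Stmn2 and the α2 receptors fall outside this rule and were named after their values were seen. Some genes that the rule picks are left out of the text singly, and counts over lists keep them. Alternatives changed the pseudocount, filter, scaling, variance trend, replicate block, fold threshold and test (limma-voom on the fragments), and left out each library in turn. Promoter windows came from RefSeq. Python 3.11.15, pandas 2.3.3, numpy 2.4.6, scipy 1.17.1 and matplotlib 3.10.9 were used.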

Additional observations from a re-analysis of the deposited data

Results flagged for a closer look

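Among 30 groups of 4 values (9 genes and 6 ratios in 2 groups), 2 held a library far from the other 3 by Dixon's criterion, which chance alone meets in about 1 of 20 groups. Both concern Adra1b in control 2, and the second follows from the first because Adra1b is its denominator. Adra1b was at 16.7 FPKM in control 2 against 8.72 to 9.57 in the other controls, with a gap of 0.893 of the range. The Adrb1 to Adra1b ratio was 0.751 in control 2 against 1.37 to 1.39 in the other controls, with a gap of 0.960 of the range.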

How the results depend on the processing

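The 1 called gene among the 9, Grk5, was called in every alternative analysis of its fold change. The number of called genes became 3 under median-of-ratios scaling (with Adrb1 and Adra1b lower), 5 under quantile normalization (all 4 tested receptors lower), 2 after removal of mitochondrially encoded genes and the 10 highest genes and 2 with limma-voom (both with Adra1b lower). It was 2 without a fold change threshold (with Adrb1) and 0 at an absolute log2 fold change above 1, and it stayed at 1 in the other 13 alternatives. Gnas had a negative fold change under quantile normalization (-0.0857). Adcy5 had a positive one without control 2 (0.0298) and without ANG II 3 (0.0496), in a range of -0.107 to 0.0496 over the libraries left out. Adcy6 was under an adjusted p of 0.05 in 3 of 17 alternatives. The receptor fold changes were negative in all 17. Counts called moved by over 1.5 times under median-of-ratios and quantile scaling for receptor kinases and arrestins (2 to 1 and 1), G protein α subunits (4 to 2 and 1), A-kinase anchoring proteins (0 to 1 and 1) and PKA substrates (1 to 3 and 3), and under quantile scaling for other adenylyl cyclases (1 to 2). For PKA subunits, inhibitors and Epac, 1 higher became 1 lower under both. Limma-voom on the recovered fragments, added for the lists after the data were seen, called 26 of the 105 pathway genes against 18, while its calls over all genes were 3995 of 19076 against 2981 of 19364. It called 4 against 1 other adenylyl cyclases (Adcy7 and Adcy2 higher, Adcy1 and Adcy8 lower), 2 against 1 each among PKA subunits, PKA substrates and CREB response genes, and 5 against 3 Gq effectors. The replicate numbers did not pair the libraries, with correlations of same-numbered deviations from -0.03 to 0.06. With the replicate number as a block, 1 of the 9 genes and 18 pathway genes were called, as without it. The smallest p of a ratio in the blocked test was 0.125, for Grk5/Grk2, and no lower value is possible with this block. The cause of these shifts was not tested. Depth limits Adrb3 (0 to 6 fragments) and Adra1d (38 to 74).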
